A study of Mus musculus with 2 samples.

Results

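The let-7 family is one of the oldest known groups of animal miRNAs, and its guide strands were followed here in exosomes released by mouse macrophages. The members were chosen by name and are let-7a-5p, let-7b-5p, let-7c-5p, let-7d-5p, let-7e-5p, let-7f-5p, let-7g-5p, let-7i-5p, let-7j and miR-98-5p, which make 10 of the 1976 mature miRNAs in the deposited tables. Exosomes, vesicles far smaller than a cell, leave the cell that makes them with a load of RNA and protein. The study compared exosomes from M1 and M2 macrophages with 1 small RNA library each. In both groups bone marrow cells of C57BL/6 mice aged 5 to 6 weeks were grown for 7 days with M-CSF at 10 ng/mL, which drives marrow cells to become macrophages. M1 cells then received IFN-γ and M2 cells IL-4, each at 20 ng/mL for 1 day. Both were held without serum for 2 days before exosomes were pelleted from the medium. The sources used here do not say how many mice or cultures went into each library. With 1 library per group no value below has a replicate error and no test was possible, so every difference is a difference between 2 libraries.

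A miRNA is cut from a hairpin precursor, and the strand that enters the Argonaute protein is called the guide while the other arm is the passenger. Bases 2 to 8 of the guide, the seed, do most of the pairing with target mRNAs. let-7 was found in worms as a regulator of developmental timing, and in mammals it represses growth genes such as Ras, Myc and Hmga2 and the RNA-binding protein Lin28, which in turn blocks the maturation of let-7 precursors. In mouse macrophages let-7c is known for favouring the M2 state, let-7e for repressing the receptor Tlr4, and let-7f for repressing A20, a brake on NF-κB. Extracellular let-7b is known to activate the RNA sensor Tlr7 in mouse neurons.

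The mature sequences, from RefSeq on GRCm38.p6, are shown because the members differ by so few bases that the counting of reads may not separate them. They run 5′ to 3′ with the seed in capitals.
mmu-let-7a-5p: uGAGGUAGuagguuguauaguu
mmu-let-7c-5p: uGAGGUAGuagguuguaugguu
mmu-let-7b-5p: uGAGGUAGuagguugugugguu
mmu-let-7e-5p: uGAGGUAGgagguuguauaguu
mmu-let-7f-5p: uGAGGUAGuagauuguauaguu
mmu-let-7d-5p: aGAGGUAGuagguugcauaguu
mmu-let-7g-5p: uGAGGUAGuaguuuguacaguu
mmu-miR-98-5p: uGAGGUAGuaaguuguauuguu
mmu-let-7i-5p: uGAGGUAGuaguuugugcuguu
mmu-let-7j: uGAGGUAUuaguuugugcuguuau

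The seed was GAGGUAG in 9 members. let-7j alone carried GAGGUAU, and over the shared length it differed from let-7i-5p by a single substitution, G8U, counted from 1 at the 5′ end of let-7i-5p. let-7c differed from let-7a by A19G, let-7f by G12A and let-7e by U9G, and let-7b differed from let-7c by A17G. let-7d, let-7g and miR-98 were each 2 bases away from let-7a. All members had 22 bases except let-7j, which had 24. Reads that match several of these entries could have been split between them or counted in one of them, and the sources used here do not say how the authors treated such reads. The values of single members are therefore uncertain, and sums over near-identical members are given beside them.

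The family as a whole took a smaller share of the M1 library. Its summed level was 100130 units, or 14.6% of all miRNA signal, in M1 exosomes, against 209485 units, or 28.5%, in M2 exosomes. A unit here is the linear level obtained from the deposited log2 value. The log2 ratio of the sums, M1 over M2, was -1.06, a 2.09-fold lower level in M1 exosomes. The ratio was -0.97 when each library was divided by its sum and -0.76 without let-7j, both short of 2-fold. Fewer vesicles that carry a miRNA and fewer copies per vesicle cannot be told apart in such libraries. The difference lay mainly in let-7j and let-7f, which together made 91.5% of the gap of 109355 units between the sums. The other 8 members summed to 64198 units, or 9.35% of the library, in M1 exosomes, against 73519.9 units, or 10.0%, in M2 exosomes, with a log2 ratio of -0.20.

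Of the 10 members, 4 were lower in M1 exosomes by at least 2-fold, 0 were higher by as much and 6 lay within 2-fold. Among all 337 miRNAs that reached 10 units in at least 1 library, 22.8% were at least 2-fold lower in M1 exosomes, and 26.1% were at least 2-fold higher. All members averaged 100 units or more over the 2 libraries, and among the 154 miRNAs that did so 20.1% were at least 2-fold lower there and 21.4% at least 2-fold higher. The 4 members below the line have related sequences, and 3 of them have hairpins in 1 cluster, so they are not independent observations. The median log2 ratio was -0.57 over the members, with a range of -2.18 to 0.55, beside 0.04 over the 337 miRNAs and 0.12 over the 154. The ratio was below 0 for 8 members and above 0 for 2, while it was below 0 for 49.3% of the 337 miRNAs.

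**Figure D1:**
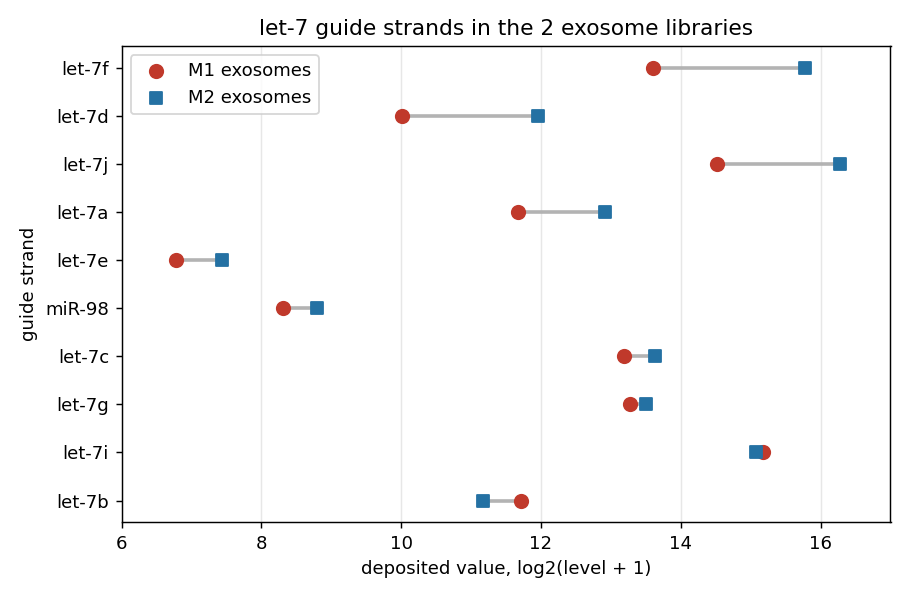
Deposited log2(level + 1) of each let-7 guide strand in the M1 library (red circles) and the M2 library (blue squares), ordered from the lowest log2 ratio at the top. The gap is widest for let-7f (13.60 in M1 and 15.78 in M2), nearly closed for let-7i (15.17 in M1 and 15.08 in M2), and turned for let-7b (11.72 in M1 and 11.16 in M2).

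let-7f-5p, known in mouse macrophages for repressing A20, showed the widest gap on the log2 scale. Its log2 value was 13.60 in M1 exosomes, against 15.78 in M2 exosomes. This is 12407 units in M1 exosomes, against 56227 units in M2 exosomes, a 4.53-fold lower level in M1. It ranked 13th of all miRNAs in the M1 library and 4th in the M2 library. Of the 337 miRNAs compared, 25 had a ratio as low as that of let-7f or lower, and 5 of these had a mean of at least 100 units, let-7f included in both counts. let-7f-5p can come from 2 hairpins with the same mature sequence. Mirlet7f-1 lies in an exon of the long noncoding RNA 6720427I07Rik, with the mature strand at chr13:48537889-48537910 on the minus strand (GRCm38, as all positions here). Mirlet7f-2 lies in an intron of Huwe1, a ubiquitin ligase gene, at chrX:151912353-151912374 on the plus strand.

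let-7d-5p and let-7a-5p come from the chromosome 13 cluster too, with let-7a having a further hairpin on chromosome 9. let-7d-5p, which in humans represses HMGA2, stood at 10.01 on the log2 scale in M1 exosomes, against 11.95 in M2 exosomes, or 1032 units in M1 against 3964 units in M2, and was 3.84-fold lower in M1. let-7a-5p, known in humans for repressing IL6, had 11.67 in M1 exosomes, against 12.92 in M2 exosomes, or 3248 units in M1 against 7738 units in M2, and was 2.38-fold lower in M1. All 3 guide strands of this cluster thus lay on the same side of the 2-fold line. The mature strand of let-7d lies at chr13:48536078-48536099 and that of Mirlet7a-1 at chr13:48538239-48538260, both in exons of 6720427I07Rik. The copy in Mirlet7a-2 lies at chr9:41536732-41536753, in introns of the noncoding genes 3110039I08Rik and Gm49317.

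let-7j was the most abundant miRNA of the M2 library and the 8th of the M1 library. Its log2 value was 14.52 in M1 exosomes, against 16.28 in M2 exosomes, or 23526 units in M1 against 79738 units in M2, and it was 3.39-fold lower in M1. It held 3.43% of the M1 library, against 10.9% of the M2 library. Its nearest relative let-7i-5p, known for repressing TLR4 in human cholangiocytes, had 15.17 in M1 exosomes, against 15.08 in M2 exosomes, a log2 ratio of 0.09. The level of let-7j was 0.637 times that of let-7i in M1 exosomes, against 2.30 times that of let-7i in M2 exosomes. let-7i and let-7j differ by G8U over the shared length, and let-7j has 24 bases against 22 in let-7i. Their log2 ratios differed by 1.85. The sum of both was 60442 units, or 8.81% of the library, in M1 exosomes, against 114422 units, or 15.6%, in M2 exosomes, with a log2 ratio of -0.92.

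The precursor of let-7j also stood apart from the others in its predicted fold. The hairpins of let-7j and let-7i are shown with the mature strand in capitals, since let-7i carries nearly the same guide in a different precursor.
Mir7j: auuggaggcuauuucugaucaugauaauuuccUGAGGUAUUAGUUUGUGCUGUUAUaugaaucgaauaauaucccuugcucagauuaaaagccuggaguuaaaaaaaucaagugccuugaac
Mirlet7i: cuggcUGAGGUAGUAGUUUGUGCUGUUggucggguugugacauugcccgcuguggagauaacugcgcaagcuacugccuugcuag

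The minimum free energy that RNAfold gave for the let-7j hairpin was -24.6 kcal/mol over 122 bases, with 17 of its 24 mature bases paired. The other 12 hairpins of the family had 83 to 108 bases, energies of -48.9 to -39.0 kcal/mol and 19 to 21 of 22 mature bases paired. A predicted fold is a description of the sequence and not a measurement of processing. Mir7j lies on chromosome 3 with its mature strand at chr3:140028281-140028304 on the plus strand, overlapping no other gene annotated in GENCODE M21. Mirlet7i lies in an exon of the pseudogene D630033A02Rik, with its mature strand at chr10:122985698-122985719 on the minus strand. The deposited tables list a passenger strand for let-7i and none for let-7j.

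**Figure D2:**
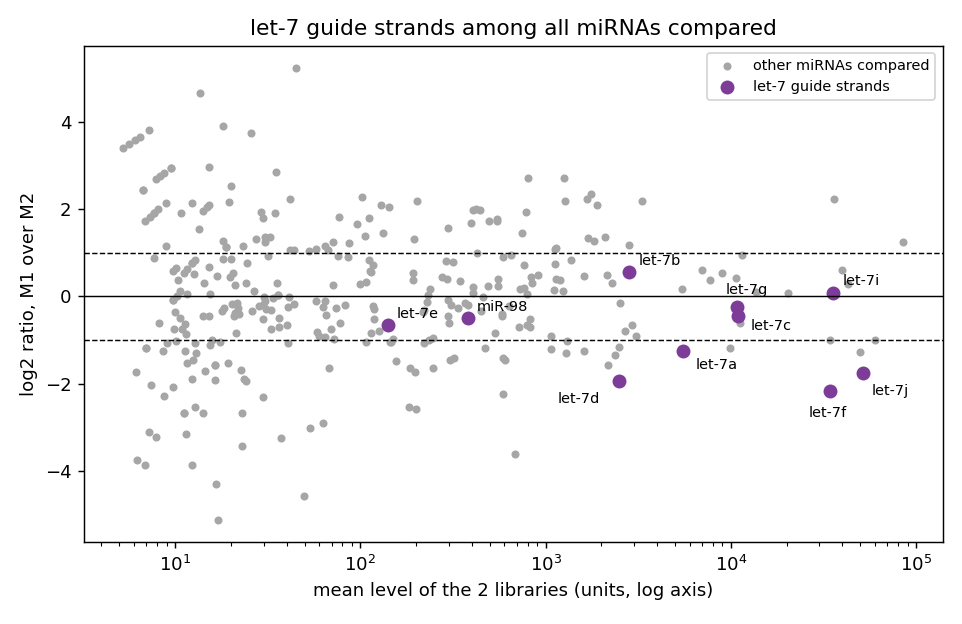
Log2 ratio of M1 over M2 against the mean linear level of the 2 libraries (log axis) for the 337 miRNAs that reached 10 units in at least 1 library, with the let-7 guide strands in purple. Dashed lines mark 2-fold; let-7f, let-7d, let-7j and let-7a lie below the lower line, and let-7b and let-7i lie above 0.

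The other members lay within 2-fold. let-7c-5p stood at 13.19 on the log2 scale in M1 exosomes, against 13.62 in M2 exosomes, and let-7g-5p had 13.27 in M1 exosomes, against 13.50 in M2 exosomes, so that their ratios were -0.44 and -0.23. let-7b-5p was the member with the highest ratio, 0.55, at 11.72 in M1 exosomes, against 11.16 in M2 exosomes. It differs from let-7c by A17G, and the hairpins Mirlet7b and Mirlet7c-2 both lie in exons of the noncoding gene Lncppara on chromosome 15, with mature strands at chr15:85707325-85707346 and chr15:85706616-85706637. let-7c has a further hairpin in an intron of Mir99ahg at chr16:77599672-77599693, and let-7g lies in an intron of Wdr82 at chr9:106178846-106178867. The least abundant members were miR-98-5p, at 8.31 in M1 exosomes, against 8.80 in M2 exosomes, and let-7e-5p, at 6.78 in M1 exosomes, against 7.43 in M2 exosomes. Their ratios were -0.49 and -0.65. Mir98 lies, like Mirlet7f-2, within an intron of Huwe1, at chrX:151913229-151913250, and let-7e lies in an intron of Spaca6 at chr17:17830366-17830387.

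The make-up of the family differed between the libraries. let-7i was the leading member in M1 exosomes, with 36.9% of the summed let-7 level, followed by let-7j with 23.5%, let-7f with 12.4%, let-7g with 9.88% and let-7c with 9.31%. In M2 exosomes let-7j led with 38.1%, followed by let-7f with 26.8%, let-7i with 16.6%, let-7c with 6.03% and let-7g with 5.54%. The reads of let-7j may not be separable from those of let-7i. Without let-7j, let-7i led in M1 exosomes with 48.2%. In M2 exosomes let-7f then led with 43.3%, followed by let-7i with 26.7%. Summed, let-7i and let-7j held 60.4% of the family in M1 exosomes, against 54.6% in M2 exosomes. As a group they led in both libraries, so whether the leading member changed depends on how reads were divided between them. With let-7j counted, let-7j and let-7f together made 35.9% of the family in M1 exosomes, against 64.9% in M2 exosomes. let-7b held 3.36% in M1 exosomes, against 1.09% in M2 exosomes, let-7a held 3.24% in M1 and 3.69% in M2 exosomes, and let-7d held 1.03% in M1 and 1.89% in M2 exosomes. miR-98 held 0.315% in M1 and 0.212% in M2 exosomes, and let-7e 0.109% in M1 and 0.0820% in M2 exosomes. Adapter ligation captures some RNA ends better than others, so these shares rank signal and not copies. From the highest to the lowest member the levels spanned 338-fold in M1 exosomes, against 464-fold in M2 exosomes. Shares within a library do not change when the whole library is rescaled. The spread between repeats of a library is unknown, so neighbours in these orders that are close, such as let-7g and let-7c or let-7a and let-7b in M1 exosomes, cannot be ranked.

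**Figure D3:**
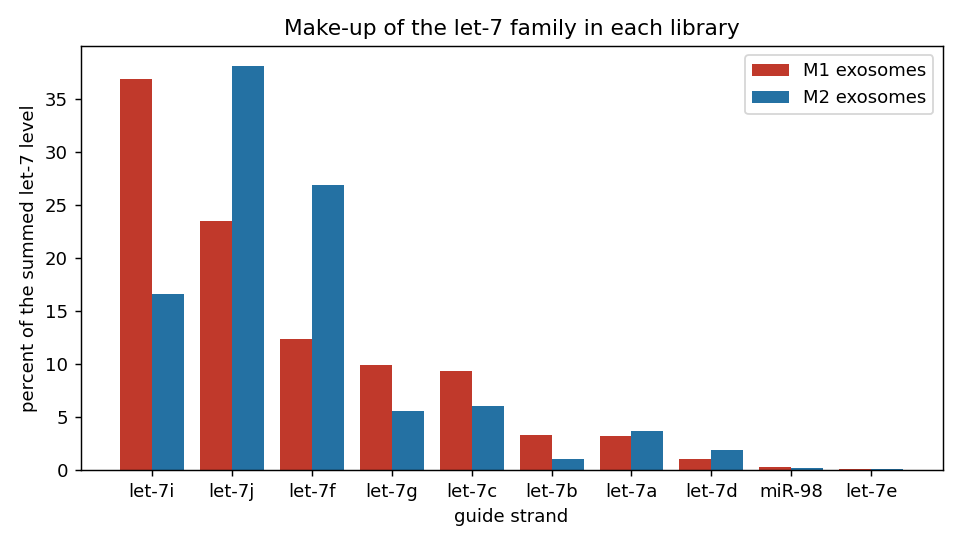
Each guide strand as a percent of the summed let-7 level in M1 exosomes (red) and M2 exosomes (blue), 1 library each. let-7i leads in M1 exosomes at 36.9%, and let-7j (38.1%) and let-7f (26.8%) lead in M2 exosomes.

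Sums over groups of near-identical members were also lower in M1 exosomes. Each such group holds let-7f or let-7j, which made most of the family's gap, so the sums do not test the direction apart from these members. let-7a, let-7b, let-7c, let-7e and let-7f are linked by steps of a single base. Together they had 28451 units in M1 exosomes, against 79055 units in M2 exosomes, a log2 ratio of -1.47. In this group let-7f alone had 12407 units in M1 exosomes, against 56227 units in M2 exosomes. The ratio was -1.25 for let-7a, and let-7b, let-7c and let-7e lay within 2-fold. let-7i and let-7j form the other such group. With steps of 2 bases allowed all 10 members join in 1 group, whose ratio is that of the whole family. Members of nearly the same sequence could have unlike ratios. In the 5 pairs that differ by a single base over the shared length the ratios lay 0.60 to 1.85 apart, with a median of 0.93. In the 10 pairs that differ by 2 bases they lay 0.06 to 1.95 apart, with a median of 0.89. For pairs that differ by 3, 4 and 5 bases the medians were 1.125, 1.395 and 0.739. They were 1.57 for the 2 pairs at 6 bases and 0.18 for the 1 pair at 7 bases. Pairs share members, so these numbers only describe the spread.

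**Figure D4:**
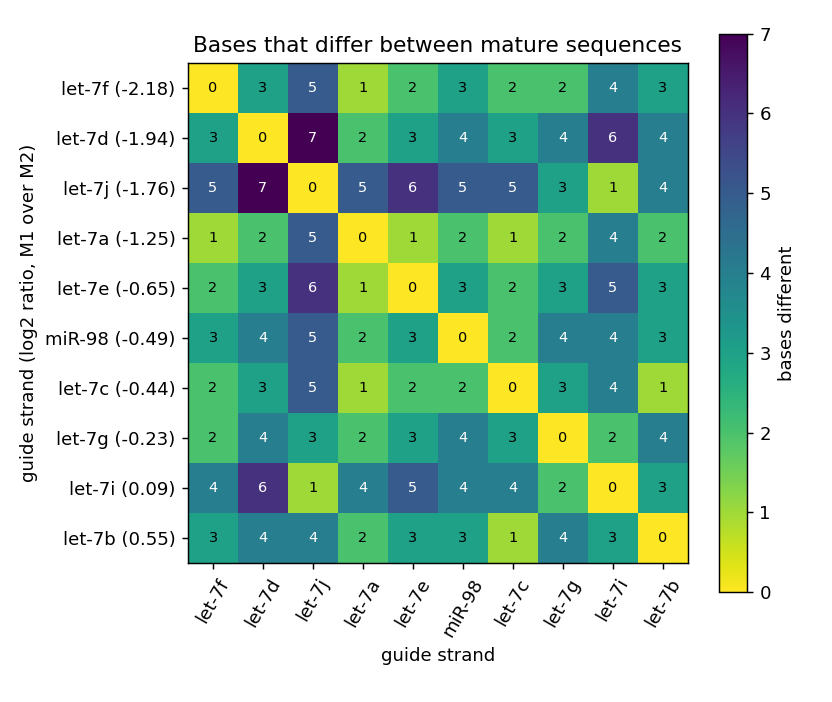
Number of bases that differ between the mature sequences of each pair of guide strands over their shared length, with members ordered by their log2 ratio of M1 over M2, printed on the left axis. let-7i and let-7j differ by 1 base at ratios of 0.09 and -1.76, and let-7b and let-7c differ by 1 base at 0.55 and -0.44.

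Passenger strands of the same hairpins could differ widely from their guides. The tables hold 12 let-7 and miR-98 passenger entries, of which 8 reached 10 units in a library. Of these 0 were lower in M1 exosomes by at least 2-fold, beside 22.8% of the 337 miRNAs, and 1 was higher by as much, beside 26.1%. Their median log2 ratio was -0.03, close to 0, and became 0.061 when each library was divided by its sum. The guide of let-7f had a ratio of -2.18 while let-7f-1-3p had 0.04, and the guide of let-7a had -1.25 while let-7a-1-3p had -0.11. These guides have hairpins on chromosome 13 and also on chromosome X (let-7f) and chromosome 9 (let-7a). let-7a-1-3p shares its sequence with let-7c-2-3p of chromosome 15. Its value and those of both guides are thus not specific to the chromosome 13 cluster. The widest gap between arms was that of let-7d. let-7d-3p had 1522 units in M1 exosomes, against 717 units in M2 exosomes, a log2 ratio of 1.09, beside -1.94 for let-7d-5p. In M1 exosomes the 5p arm of let-7d was 0.678 times as abundant as its 3p arm, and in M2 exosomes it was 5.53 times as abundant.

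The remaining passengers were low. let-7e-3p had 24.5 units in M1 exosomes, against 16.5 units in M2 exosomes, a ratio of 0.55 beside -0.65 for its guide. let-7b-3p had 15.1 units in M1 exosomes, against 10.2 in M2 exosomes, a ratio of 0.52 close to the 0.55 of its guide. let-7c-1-3p had a ratio of -0.38 beside -0.44 for its guide, and miR-98-3p had -0.14 beside -0.49. The passengers of the abundant guides let-7g and let-7i stayed below 10 units, with 2.35 units in M1 and 2.55 units in M2 exosomes for let-7g-3p and 5.57 units in M1 and 2.60 units in M2 exosomes for let-7i-3p. let-7f-2-3p had 0.80 units in M1 exosomes, the step taken there as 1 read, against 0.021 units in M2 exosomes. let-7a-2-3p was listed at 0 in both. let-7a-1-3p and let-7c-2-3p have the same mature sequence, so a read of either cannot be told from the other by its bases. They were listed with different values. let-7a-1-3p had 29.3 units in M1 exosomes, against 31.6 units in M2 exosomes, and let-7c-2-3p had 30.8 units in M1 exosomes, against 49.2 units in M2 exosomes. Their log2 ratios were -0.11 and -0.66. Levels this low rest on few reads.

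**Figure D5:**
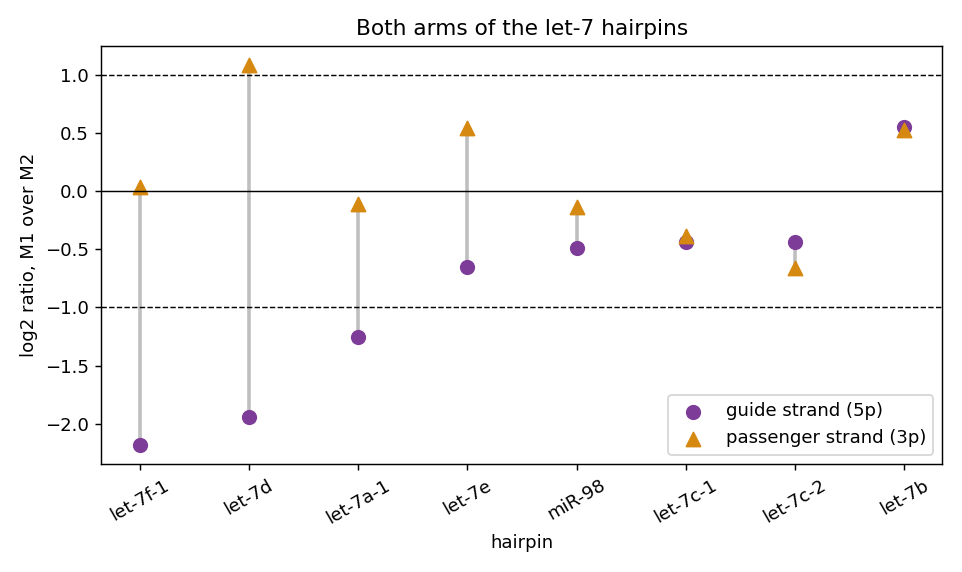
Log2 ratio of M1 over M2 of the guide strand (purple circles) and of the passenger strand (orange triangles) for the 8 hairpins whose passenger reached 10 units in a library, ordered by the guide's ratio. The guides of let-7a, let-7c and let-7f come from 2 hairpins each, so their value is not specific to the hairpin named. The passengers of let-7a-1 and let-7c-2 have the same sequence. The arms are farthest apart in let-7d (-1.94 and 1.09) and let-7f-1 (-2.18 and 0.04) and lie together in let-7b (0.55 and 0.52).

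miRNAs of other families that lie within 10 kb of a let-7 hairpin on the same strand showed no shared direction. The 8 such entries come from Mir99a beside Mirlet7c-1, Mir100 beside Mirlet7a-2, and Mir99b and Mir125a beside Mirlet7e. Of the 6 that reached 10 units, 1 was lower in M1 exosomes by at least 2-fold, beside 22.8% of the 337 miRNAs, and 3 were higher by as much, beside 26.1%. Their median log2 ratio was 0.77. miR-99a-5p was 2.01-fold lower in M1, at 15.28 in M1 exosomes, against 16.28 in M2 exosomes, beside a log2 ratio of -0.44 for let-7c-5p. Its log2 ratio lay at the edge of the 2-fold line and became -0.91 when each library was divided by its sum, which left 0 neighbours at least 2-fold lower. miR-100-5p had a ratio of -0.22, at 9.20 in M1 exosomes, against 9.42 in M2 exosomes. Around let-7e the arms miR-99b-5p and miR-99b-3p had ratios of 2.19 and 1.74 and miR-125a-3p had 2.20, while miR-125a-5p had -0.20 and let-7e-5p -0.65. The hairpins of miR-99b and miR-125a lie 95 and 368 bases from that of let-7e, and the strands of this locus differed in both directions.

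Other miRNAs with a let-7 seed added little among the 1677 names with a reference sequence. The seed GAGGUAG also occurs in miR-1961, which had 17.4 units in M1 exosomes, against 24.0 units in M2 exosomes, a log2 ratio of -0.44, and in let-7k, which stayed below 10 units with 7.91 in M1 exosomes, against 6.36 in M2 exosomes. The seed GAGGUAU of let-7j also occurs in miR-202-3p, which was listed at 0 in both libraries. The miRNAs nearest to let-7j in the plane of the 2 log2 values were miR-148a-3p, at a distance of 0.36, and miR-99a-5p, at 0.76. For let-7i-5p they were miR-221-3p (0.38) and miR-27b-3p (0.40), and for let-7f-5p miR-21a-5p (0.93) and miR-148a-3p (1.27). Likeness over 2 libraries means a similar level and ratio and nothing more.

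miR-146a-5p and miR-21a-5p, from the macrophage and myeloid list, were abundant in both libraries, and markers of other cells were present too. The 6 macrophage and myeloid miRNAs checked (miR-223-3p, both arms of miR-142a, miR-155-5p, miR-146a-5p and miR-21a-5p) reached 10 units and summed to 21.5% of the signal in M1 exosomes, against 13.4% in M2 exosomes. miR-146a-5p carried this sum, and without it the other 5 made 3.91% in M1 exosomes, against 6.53% in M2 exosomes. Of those 5, miR-223-3p, miR-142a-3p and miR-21a-5p had ratios below 0 (-0.69, -1.07 and -0.99), and miR-155-5p and miR-142a-5p had ratios of 1.35 and 1.72. Most of the sum of those 5 was miR-21a-5p, with 22866 of 26825 units in M1 exosomes, against 45449 of 47949 units in M2 exosomes. miR-223-3p had 630 units in M1 and 1019 in M2, and miR-155-5p 2429 in M1 and 952 in M2. miR-142a-5p had 757 units in M1 and 229 in M2, and miR-142a-3p 142 in M1 and 299 in M2. The 3 hepatocyte miRNAs made 8.78% in M1 exosomes, against 1.78% in M2 exosomes, nearly all of it miR-122-5p with a ratio of 2.24. The other 2, miR-192-5p and miR-194-5p, had ratios of 0.35 and 0.34 and made 0.0742% in M1 exosomes, against 0.0544% in M2 exosomes. The 4 erythroid miRNAs made 0.756% in M1 and 0.124% in M2 exosomes. The 5 stromal ones made 0.194% in M1 and 0.106% in M2 exosomes, but 0.0698% in M1 and 0.0723% in M2 exosomes without miR-199a-3p. Epithelial miRNAs made 0.0348% in M1 exosomes, against 0.0225% in M2 exosomes, but went both ways. miR-200a-3p, miR-200c-3p and miR-205-5p had ratios of 1.828, 1.373 and 0.818. miR-200b-3p, miR-141-3p and miR-203-3p had -0.61, -1.795 and -0.455. Of these miR-205-5p and miR-141-3p stayed below 10 units. Endothelial miRNAs made 0.140% in M1 and 0.0801% in M2, but 0.00173% in M1 and 0.00121% in M2 without miR-126a-3p. The sums that were lower in M1 exosomes, as the let-7 sum was, were those of neuronal (0.0635% in M1 and 0.206% in M2), lymphocyte (0.00149% in M1 and 0.00480% in M2) and muscle miRNAs (0.00264% in M1 and 0.00394% in M2), with the neuronal miR-124-3p at 0 in both. The neuronal sum was lower in M1 through miR-9-5p, with a ratio of -3.61, while miR-128-3p had 333 units in M1 exosomes, against 251 units in M2 exosomes. The lymphocyte value is that of 1 miRNA, miR-150-5p, with 10.2 units in M1 exosomes, against 35.3 units in M2 exosomes. The muscle sum was 18.1 units in M1 exosomes, against 28.9 units in M2 exosomes, mostly miR-206-3p with a ratio of -0.27. The lymphocyte and muscle values rest on few reads. The part of these cell sources in the let-7 values was not tested.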

How the data were processed

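The 2 libraries were made with a NEBNext small RNA kit from 500 ng of RNA, per the labels. Per the submitters' processing notes, Bowtie2, bedtools and the mm10 build were used, with no roles stated. The authors deposited 1 log2 value per mature miRNA and library, with a lowest value of 0. The sources used here do not state the normalization, whether strand was used, or the treatment of reads matching several entries. Linear levels (units) were obtained by undoing log2(level + 1). Among miRNAs near 0 in the other library, low levels came in multiples of a step, taken as the worth of 1 read there. The step was 0.80 units in M1 (172 miRNAs, 100% whole within 0.1 step) and 1.22 units in M2 (126 miRNAs, 97.6%). The depth at higher levels is unknown, so no intervals are given. Values below 1 step exist in both libraries, so the libraries were treated as normalized together. Ratios are M1 minus M2 on the log2(level + 1) scale, and 2-fold was counted as different for miRNAs with 10 units in at least 1 library. Of the 1976 names 1677 matched a RefSeq sequence, including all 10 members. Hairpins were folded with RNAfold (ViennaRNA 2.7.2), and host genes come from GENCODE M21 on GRCm38, the assembly called mm10. All members were named, as were passenger strands, neighbours within 10 kb, seed sharers and the 2 nearest miRNAs of the 3 most abundant members. The members and lists were chosen with earlier results of these data known. The counting of 2-fold differences was tried on simulated libraries with planted changes larger than 2-fold and noise from read sampling only. Those libraries held no variation between cultures and no sharing of reads between near-identical entries, so the trial does not bear on either. Calculations used Python 3.11.15, numpy 2.4.6 and pandas 2.3.3.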

Additional observations from a re-analysis of the deposited data

How the results depend on the processing

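No paired analysis was possible because M1 and M2 exosomes gave 1 library each, so leaving a library out would leave no comparison. The other scalings were division by the library sum, by the sum without the 10 most abundant miRNAs, and centring on miRNAs that are no member. Under these and with 10 added to the level, each of the 10 member ratios kept its direction and its side of the 2-fold line. The scalings move all ratios nearly alike, by shifts from -0.064 to 0.098. The ratio nearest the line was -1.25 (let-7a) and that nearest 0 was 0.09 (let-7i), so no member could cross. These settings do not bear on read assignment or replication. The number of members at least 2-fold lower in M1 exosomes was 4 under every scaling and minimum tried, but the share of all miRNAs compared that were as low, 22.8%, ran from 19.6% to 24.6% under the scalings and from 15.0% (10 units in both libraries) to 30.7% (no minimum) under the minimums. The number was 5 at 1.5-fold and 3 at 3-fold, beside 32.9% and 11.9% of all miRNAs compared. The log2 ratio of the let-7 sums was -0.97 after division by the library sum and -0.76 without let-7j, in place of -1.06. Without let-7j the family held 11.2% of the signal in M1 exosomes, against 17.7% in M2 exosomes. Leaving out let-7j raised the share of each of the other 9 members in the M2 family by over 1.5 times, to 43.3% for let-7f and 26.7% for let-7i. The median ratio of the passenger strands was 0.061 after division by the library sum, in place of -0.03, because that scaling moves ratios up by about 0.10. The neighbours' single ratios and the marker sums without their most abundant miRNA were added after seeing the data. Ratios of passengers near 10 units are limited by depth. At the steps seen in miRNAs near 0 in the other library, 10 units would be about 12.5 reads in M1 and 8.18 in M2. For miRNAs present in both libraries, as these passengers are, such read numbers are only rough. Variation between cultures and preparations is not measured.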

Other observations

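The let-7 guide strands can also be grouped by their last bases, a grouping chosen after the values were seen. let-7a, let-7d, let-7e and let-7f end in AUAGUU, and 0 other miRNAs with a reference sequence in the table do. These 4 had log2 ratios of -2.18 to -0.65, with a median of -1.60. They summed to 16796 units in M1 exosomes, against 68101 units in M2 exosomes. Most of this sum was let-7f, with 12407 units in M1 and 56227 units in M2. let-7a, let-7d and let-7f are also the guides with hairpins in the chromosome 13 cluster, so the grouping is not a separate observation. The 6 members with another end had ratios of -1.76 to 0.55, with a median of -0.33, and of these let-7j alone lay below the 2-fold line. Their sum was 83334 units in M1 exosomes, against 141384 units in M2 exosomes. let-7c and let-7b, which both carry A19G relative to let-7a, had ratios of -0.44 and 0.55.

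Of the 337 miRNAs compared, 293 have a reference sequence and 44 do not, so identical entries were sought among the 293. There miR-199a-3p and miR-199b-3p were the other entries with the same mature sequence. miR-199a-3p had 850.0 units in M1 exosomes, against 245 units in M2 exosomes, and miR-199b-3p had 443 units in M1 exosomes, against 148 units in M2 exosomes, with log2 ratios of 1.79 and 1.58. As with let-7a-1-3p and let-7c-2-3p, the entries shared every base and not their values.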
